A study of Homo sapiens with 30 samples.

Results

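HT29 cells, an established line from a human colorectal adenocarcinoma, were compared after 24 h with a low dose of 4 herbal extracts or with solvent alone. The comparison took every library labelled 20 µg/mL, 9 in all, against the 3 vehicle libraries, 12 of the 30 libraries in the series. The low dose was given as a 70% ethanol extract of Bojungikgi-tang (3 libraries), Sayeok-tang (3 libraries), Banhasasim-tang (2 libraries, replicates 2 and 3) or Yijung-tang (1 library, replicate 3). The vehicle cells received 0.1% DMSO by their label, while the series text gives 2% DMSO. By its title the series records transcriptome responses to digestive herbal medicines, and by its design text libraries that failed for low RNA concentration were left out. Whether replicates were grown as separate cultures is not stated in the labels, and p-values measure just the spread between libraries, which may be technical. For the main gene tests that spread was estimated over all 30 libraries of the series. The vehicle libraries carry a sample code series of their own, so code series and treatment cannot be told apart.

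Counts of mRNA sequencing depend on how much of each mRNA a cell holds and also on how well each cDNA is copied and sequenced. Base composition (GC content) and transcript length are properties by which libraries of the same cells can differ. Mitotic genes are made just before division, ribosomal protein mRNAs are short and abundant, and the aryl hydrocarbon receptor (AhR) switches on CYP1A1, CYP1B1 and TIPARP when plant compounds bind it.

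Total expected counts in the 12 libraries ran from 39.0 to 71.6 in units of 1e6 counts, with a median of 50.3, and a floor of 3 counts equalled 0.0419 to 0.0768 CPM (counts per 1e6 counts), which covers counting error only. Of the 12 colon epithelial markers, 11 reached 1 CPM in all 12 libraries, led by the keratins KRT8 and KRT18. Of the 11 leukocyte markers, 7 stayed under 1 CPM in all 12, with CD2 and MS4A1 at 0, and 4 reached 1 CPM in all 12. Those 4 were LYZ, CD68 (4.26 to 8.16 CPM), CD14 (2.7 to 4.99 CPM) and ITGAM (1.28 to 1.87 CPM). The summed leukocyte level, 1710 to 1970 CPM at 20 µg/mL and 1740 to 1860 CPM in the vehicle, came almost wholly from the lysozyme gene LYZ (1840 ± 77.2 CPM, SD, n = 9, against 1820 ± 116, n = 3). Of the 11 fibroblast and endothelial markers, 7 stayed under 1 CPM, with KDR at 0. COL1A1 (1.06 to 1.6 CPM) and PECAM1 (1.28 to 2.22 CPM) passed 1 CPM in all 12 libraries. The summed level of the 11 was 4.42 to 5.36 CPM at 20 µg/mL and 4.1 to 5.0 CPM in the vehicle. Vehicle replicate 1 stood apart from the other vehicle libraries: the chi-square statistic per gene was 29.09 against replicate 2 and 34.73 against replicate 3, but 7.912 between replicates 2 and 3. Pairs of libraries within an extract gave 4.467 to 14.54. Counts of calls against the vehicle, in all and per list, are therefore also given without Vehicle replicate 1, where 5.44% of all genes tested were called higher and 5.65% lower.

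At 20 µg/mL a large part of the transcriptome differed from the vehicle by a small amount. The quasi-likelihood test of edgeR called 5489 of 18783 genes (29.2%) at a Benjamini-Hochberg adjusted p under 0.05, 2568 higher (13.7%) and 2921 lower (15.6%). Among called genes with a mean of at least 5 CPM, the 2217 higher genes had a median log2 fold change of 0.20 (5th to 95th percentile 0.11 to 0.37) and the 2410 lower genes a median of −0.23 (−0.47 to −0.12). Of these, 7 higher (0.316%) and 37 lower (1.54%) passed 1.5-fold. Over all levels, 32 called genes were more than 2-fold higher (0.17%) and 101 more than 2-fold lower (0.538%). The values of the 9 extract libraries and the 3 vehicle libraries did not overlap for 2045 genes that were higher at 20 µg/mL (10.9%) and 2111 that were lower (11.2%).

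The number of calls rested largely on Vehicle replicate 1. Without it 2082 genes were called (11.1%), 1022 higher (5.44%) and 1060 lower (5.65%), and these held 1000 of the higher (38.9%) and 1037 of the lower genes (35.5%) of the full comparison. The genes called in that fit with at least 5 CPM had medians of 0.21 and −0.21. These medians cover a different set of genes, chosen by passing the test, so they do not show that sizes held. In fixed classes of genes the differences were smaller without that library. The median log2 fold change went from −0.164 to −0.084 for the 10% with the shortest transcripts and from 0.136 to 0.087 for the longest 10%. Leaving out Vehicle replicate 2 gave 4458 calls and leaving out replicate 3 gave 5817.

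The genes that rose at 20 µg/mL by the rule for large changes included SLC5A3, PTPRO, BMF and ABCA1. SLC5A3 encodes the sodium-coupled myo-inositol transporter (chr21:34073570-34106262, GRCh38, protein coding, overlapping MRPS6). It stood at 147 to 177 CPM (median 165) in the 9 extract libraries and at 89.3, 108 and 118 CPM in the vehicle libraries. Every extract library lay above every vehicle library, with Vehicle replicate 1 lowest, and the log2 fold change was 0.61 ± 0.08 (SE), adjusted p 4e-05. PTPRO, a receptor-type tyrosine phosphatase, was at 25.1 to 30.7 CPM (median 27.2) against 17.9, 16.7 and 19.9 CPM, a log2 fold change of 0.58 ± 0.05. BMF, a BH3-only member of the BCL2 family that promotes apoptosis, was at 6.18 to 8.71 CPM (median 6.9) against 4.4, 5.0 and 4.86 CPM, a log2 fold change of 0.57 ± 0.06. ABCA1, which exports cholesterol to lipoproteins, was at 5.88 to 6.87 CPM (median 6.4) against 4.08, 4.05 and 5.24 CPM, a log2 fold change of 0.52 ± 0.08. The groups of these 3 genes did not overlap, which the rule required. All 4 genes were also in the set chosen for staying called without Vehicle replicate 1, so neither trait is separate evidence. SLC5A3 and ABCA1 have long transcripts (11576 and 10494 bases). After the correction for GC content and length described below, the fold changes were 0.39 for SLC5A3, 0.44 for PTPRO, 0.54 for BMF and 0.36 for ABCA1.

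Several of the largest falls were in short transcripts. TMEM160, a small mitochondrial membrane protein gene of 663 bases and 72.2% GC (chr19:47045907-47048630), was at 4.8 to 13.5 CPM (median 8.03) against 23.8, 20.0 and 21.8 CPM in the vehicle, a log2 fold change of −1.37 ± 0.28. Its extract libraries varied among themselves more than the vehicle did, and all lay below it. ROMO1, which modulates reactive oxygen species in mitochondria, was at 36 to 46.7 CPM (median 41.5) against 101, 67.8 and 56.1 CPM, a log2 fold change of −0.85 ± 0.16. The calcium-binding S100A6 was at 841 to 1040 CPM (median 953) against 2060, 1470 and 1330 CPM, a log2 fold change of −0.79 ± 0.13. Its neighbour S100A2 was at 7.06 to 9.74 CPM (median 8.79) against 18.9, 13.2 and 13 CPM, a log2 fold change of −0.79 ± 0.12. In ROMO1, S100A2 and S100A6 the first vehicle library was the highest of the 3, and the fold changes without it were −0.58, −0.60 and −0.58. After the same correction TMEM160 was at −1.13, ROMO1 at −0.60, S100A6 at −0.56 and S100A2 at −0.62. The metallothionein MT1X, which binds zinc and copper, fell by 0.72 on the log2 scale.

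**Figure D1:**
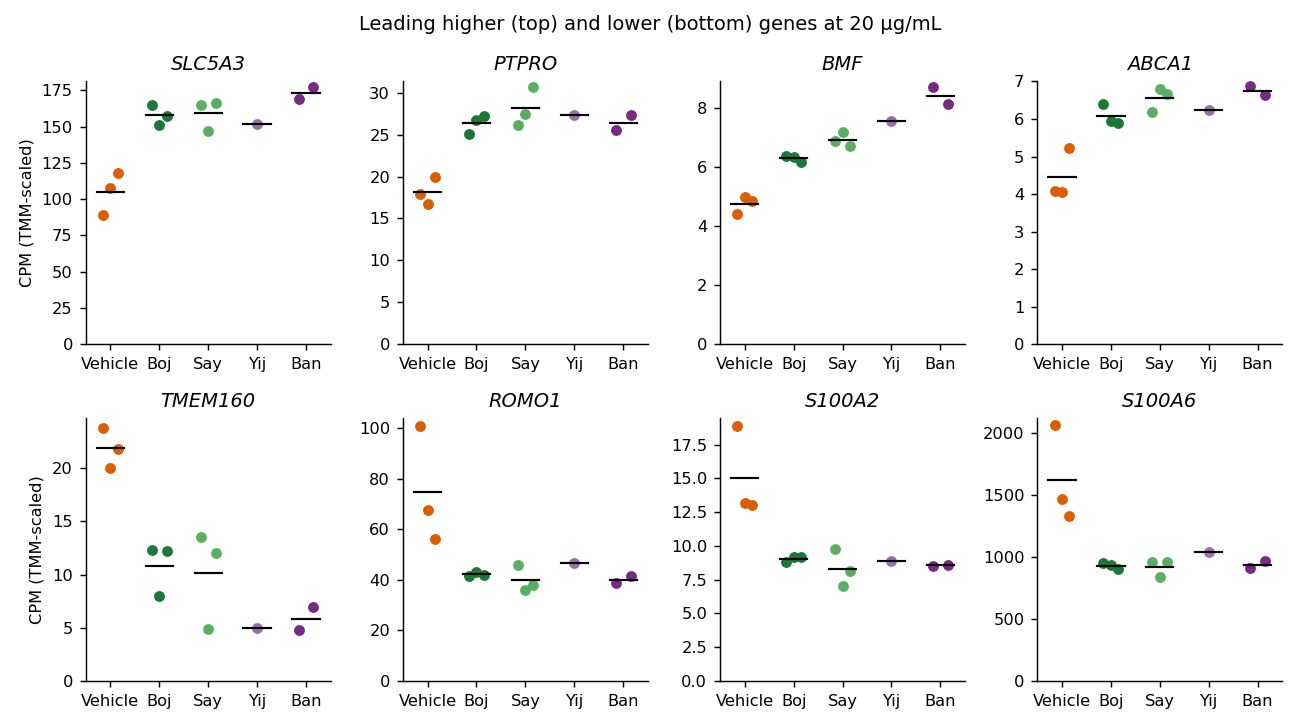
Expression in CPM (scaled by TMM factors, linear axes from 0) of 4 genes that rose and 4 that fell at 20 µg/mL, with 1 point per library and bars for group means. For SLC5A3 the extract libraries lie at 147 to 177 CPM and the vehicle libraries at 89.3 to 118 CPM.

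Other leading genes by the same rule are less certain. Processed pseudogenes (RPL7P9 at −0.80 ± 0.06, HMGB1P6 at −0.87 ± 0.12, H3P6 at 0.52 ± 0.10) are near copies of their parent genes, so their reads could be assigned elsewhere. FMC1-LUC7L2, a readthrough gene model, had a log2 fold change of −1.75 ± 0.63 and was not called without Vehicle replicate 1 (adjusted p 0.19). ZBED6, encoded within another gene, had 0.62 ± 0.17 and was likewise not called without it (adjusted p 0.131).

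The differences followed base composition and transcript length. Across 18642 genes, the Spearman correlation of the log2 fold change was −0.33 with GC content and 0.36 with transcript length, given as a description because genes are not independent replicates and share the libraries. Among the 10% of genes with the least GC (24.9 to 38.9%), 32.6% were higher and 3.27% lower, and the median log2 fold change was 0.11. Among the 10% with the most GC (61.9 to 75.8%), 2.52% were higher and 30.6% lower, and the median was −0.13. Among the longest 10% (6378 to 205012 bases) 38.2% were higher and 3.59% lower, and among the shortest (75 to 750 bases) 2.14% were higher and 14.0% lower. Genes called higher had a median GC of 42.1% and a median length of 4725 bases, those called lower 56.0% and 1898 bases, and all genes tested 49% and 2529 bases.

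Genes were then split by both properties at once. With 3 equal classes of each, 45.9% of the 2835 genes lowest in GC and longest were higher and 2.5% lower. Of the 2340 genes highest in GC and shortest, 1.5% were higher and 34.0% lower. In the middle class of both, the shares were 7.83% and 15.2%. Without Vehicle replicate 1 the correlations were −0.31 and 0.27, so the direction did not depend on that library.

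**Figure D2:**
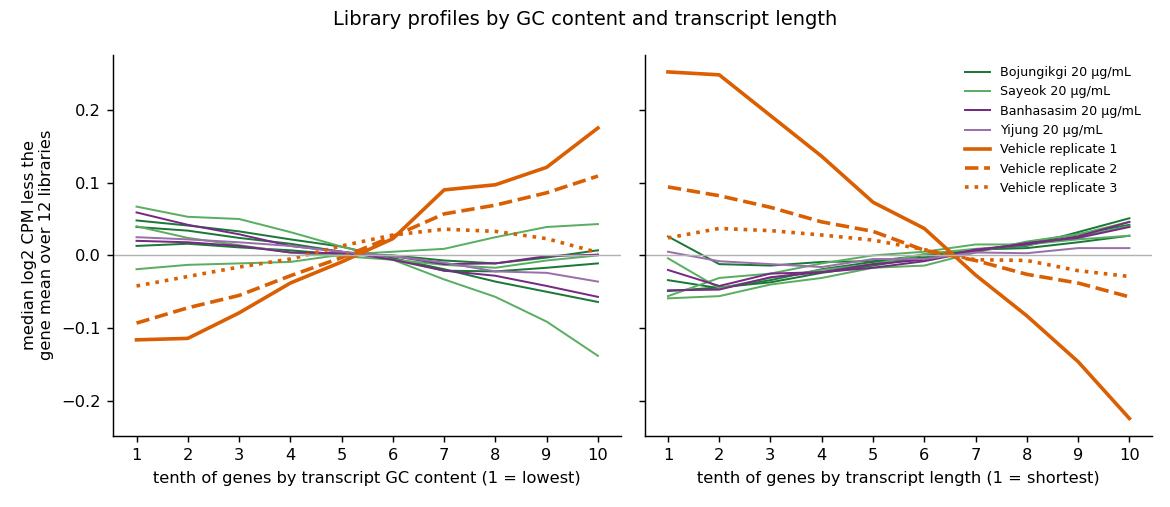
Median log2 CPM of each library less the gene's mean over the 12 libraries, in 10 equal classes of genes by transcript GC content (left) and length (right), with 1 line per library. Among the GC-richest genes Vehicle replicates 1 and 2 lie above all extract libraries, while replicate 3 (0.004) lies below Sayeok-tang replicate 2 (0.043) and Bojungikgi-tang replicate 1 (0.007).

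Each library's slope on these properties was measured over the same genes, on log2 CPM less the gene's mean over the 12 libraries. The slopes are therefore relative to the other libraries, and opposite signs of the group means follow from the centring. The slope on GC content averaged −0.0211 ± 0.0266 log2 CPM per 10 percentage points at 20 µg/mL (SD, n = 9) and was 0.0983, 0.0697 and 0.0217 in Vehicle replicates 1, 2 and 3. The difference was −0.0843 (two-sided exact permutation p = 0.0182, adjusted over 5 library measures 0.0303). It was −0.0668 without Vehicle replicate 1 (exact p = 0.0727), where 9 against 2 libraries cannot go below 0.0364. Sayeok replicate 2, at 0.0238, lay above Vehicle replicate 3. The slope on length averaged 0.0172 ± 0.00885 log2 CPM per doubling at 20 µg/mL and was −0.11, −0.0355 and −0.01 in the vehicle, with no overlap (exact p = 0.00909, adjusted 0.0227, the smallest that 9 against 3 allows). Without Vehicle replicate 1 the exact p was 0.0364, again the smallest possible, and 0.0909 after adjustment.

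A correction for GC content and length was then fitted to each library as a smooth curve. It left correlations of −0.01 and 0.00 and called 4267 genes (22.7%), 1270 higher (6.76%) and 2997 lower (16.0%). The share of calls that were higher thus went from 46.8% to 29.8%, and the median over all genes was −0.03 after the correction and −0.01 before it. Of the original calls, 990 higher genes (38.6%) and 1878 lower genes (64.3%) were called the same way, and 10 of the higher genes were called lower. With the correction and without Vehicle replicate 1, 1676 genes were called (8.93%), 605 higher (3.22%) and 1071 lower (5.7%). Calls that kept their direction in the full comparison, without Vehicle replicate 1, with the correction and with both numbered 413 higher (16.1% of the higher genes) and 637 lower (21.8%). A curve fitted to each library also removes any difference between treatments that follows GC content or length, and the part of either in the offset was not tested.

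**Figure D3:**
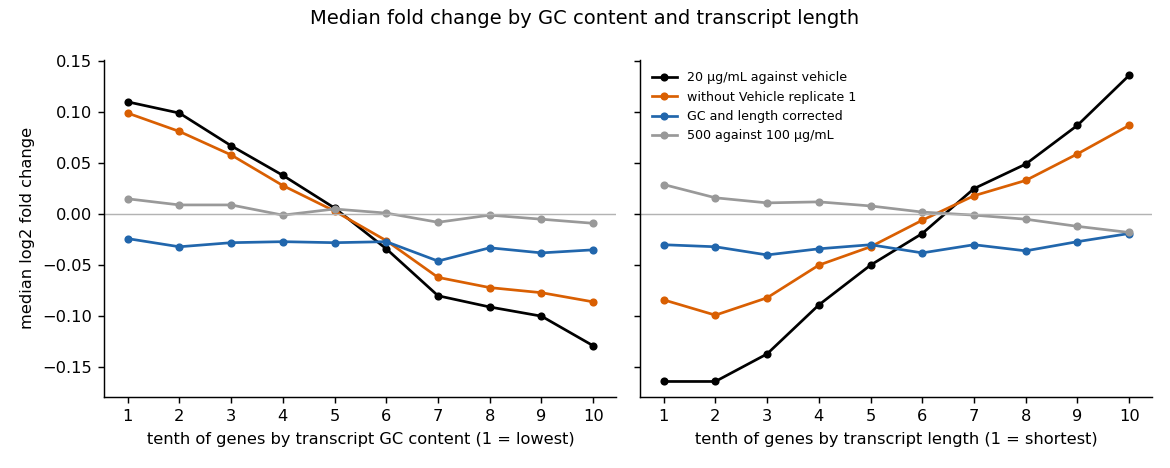
Median log2 fold change in 10 equal classes of genes by transcript GC content (left) and length (right), for 20 µg/mL against vehicle with all libraries, without Vehicle replicate 1 and after the correction, and for 500 against 100 µg/mL. The uncorrected median runs from 0.11 at the lowest GC to −0.13 at the highest.

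Mitotic genes were lower at 20 µg/mL under each of these settings. Of 24 G2/M genes tested, 14 were lower and 0 higher (median log2 fold change −0.14, against −0.01 over all genes tested), 13 were lower without Vehicle replicate 1, 23 after the correction and 20 with both. Of all genes tested, 15.6%, 5.65%, 16.0% and 5.7% were called lower under these 4 settings. PLK1, the kinase that drives entry into and passage through mitosis (chr16:23677656-23690367), was at 127 to 150 CPM (median 136) at 20 µg/mL and at 197, 184 and 180 CPM in the vehicle, a log2 fold change of −0.46 ± 0.04 (adjusted p 2.9e-07). CCNB1, the cyclin that activates CDK1, was at 140 to 151 CPM (median 147) against 204, 190 and 195 CPM, a log2 fold change of −0.41 ± 0.04. The groups did not overlap for either gene. CCNB2, also a mitotic cyclin, was at −0.36 ± 0.04, and CDC20, which activates the anaphase-promoting complex, at −0.35 ± 0.04. Other members, named after their values were seen, fell too: the spindle and survival gene BIRC5 was at −0.46, its partner kinase AURKB at −0.33, the spindle pole kinase AURKA at −0.24 and the kinesin KIF20A at −0.27. In bulk RNA, fewer cells in mitosis and less of these mRNAs per cell cannot be told apart.

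Some members, also named after their values were seen, did not pass the test before the correction. MKI67 was at −0.07, CENPF at −0.06, TOP2A at −0.07, KIF11 at 0.03 and ASPM at 0.03, and after the correction all 5 passed it, at −0.21, −0.28, −0.26, −0.14 and −0.20. The falls were set side by side for the 3 replicated extracts, which share the vehicle libraries: PLK1 had −0.47 ± 0.06 with Bojungikgi-tang, −0.46 ± 0.06 with Sayeok-tang and −0.45 ± 0.06 with Banhasasim-tang, and a log2 ratio of −0.42 in the single Yijung-tang library. Between 500 and 100 µg/mL, whose fold changes use none of the 12 libraries though the estimate of spread is shared, 6.72% of all genes tested were called (2.85% higher and 3.88% lower) but 0 of the 24 genes by edgeR (PLK1 at 0.08, adjusted p 0.188). Of 24 G1/S and DNA replication genes, 4 were higher and 6 lower at 20 µg/mL, 1 and 1 without Vehicle replicate 1, and 0 and 6 after the correction. The shares of all genes tested were 13.7% and 15.6%, 5.44% and 5.65%, and 6.76% and 16.0%. TYMS, the thymidylate synthase, was at −0.23 ± 0.04, and MCM6, of the replicative helicase, at 0.15 ± 0.03 (0.03 after the correction).

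**Figure D4:**
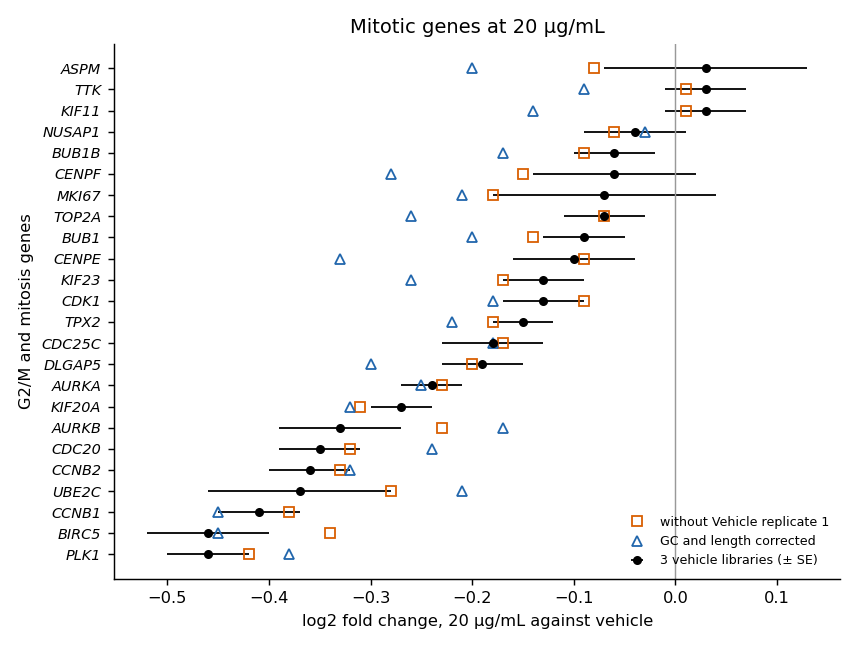
Log2 fold change at 20 µg/mL against vehicle of the 24 G2/M genes, with standard errors for the comparison with 3 vehicle libraries, and open symbols without Vehicle replicate 1 and after the GC and length correction. PLK1, CCNB1 and CDC20 lie left of 0 under all 3, and CENPF lies at −0.06 before the correction and −0.28 after it.

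Most of the ribosomal protein calls rested on Vehicle replicate 1. Their share of counts was 5.11 to 5.5% (median 5.26%) at 20 µg/mL and 6.92%, 5.9% and 5.57% in Vehicle replicates 1, 2 and 3. All 9 extract libraries lay below the vehicle (difference −0.881 percentage points, exact p = 0.00909, adjusted 0.0227), and without Vehicle replicate 1 the difference was −0.485 (exact p = 0.0364, adjusted 0.0909). Of 83 cytosolic ribosomal protein genes, 46 were lower and 0 higher. The lower calls were 6 without Vehicle replicate 1, 36 after the correction and 7 with both. Among all genes tested, the shares called lower were 15.6%, 5.65%, 16.0% and 5.7% in the same order. RPLP1, of the ribosomal stalk, was at 756 to 1020 CPM (median 939) against 1930, 1440 and 1290 CPM, a log2 fold change of −0.75 ± 0.14. Many processed copies of these genes exist in the genome, so single members are uncertain.

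The next 3 lists are to be read against 13.7% higher and 15.6% lower of all genes tested. Those shares were 5.44% and 5.65% without Vehicle replicate 1, and 6.76% and 16.0% after the correction. Of 78 mitochondrial ribosomal protein genes, 2 were higher and 43 lower, 2 and 21 without Vehicle replicate 1, and 1 and 33 after the correction. MRPS34, a subunit of the small mitochondrial ribosome, was at −0.54 ± 0.07. Nuclear genes of oxidative phosphorylation had 1 higher and 15 lower of 30, but 3 lower without Vehicle replicate 1 and 14 lower after the correction. CYC1 (cytochrome c1) was at −0.38 ± 0.06. Proteasome genes had 1 higher and 19 lower of 31, but 7 lower without that library and 21 lower after the correction. The 20S subunit PSMA7 was at 244 to 273 CPM (median 261) against 452, 347 and 330 CPM. These lists are of short transcripts, with median lengths of 1017 bases for the cytosolic and 1458 for the mitochondrial ribosomal proteins, 1426 for oxidative phosphorylation and 1580 for the proteasome, and the part of length in them was not tested beyond the correction. The 13 mitochondrially encoded mRNAs took 7.07 ± 0.471% of counts at 20 µg/mL and 7.67 ± 0.625% in the vehicle (exact p = 0.127).

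Lists of long or AT-rich genes had more higher than lower calls, but not after the correction. Of 415 ZNF zinc finger genes, many of them repressors of transposable elements, 93 were higher and 28 lower, 32 and 9 without Vehicle replicate 1 and 20 and 38 after the correction, where 13.7% and 15.6%, 5.44% and 5.65%, and 6.76% and 16.0% of all genes tested were called. Of 32 long centrosome and chromatin genes (median length 9835 bases), 8 were higher and 2 lower, 1 and 0 without Vehicle replicate 1 and 0 and 15 after the correction. NIPBL, the cohesin loader, went from 0.25 (adjusted p 0.15 without Vehicle replicate 1) to 0.03 and SMC5 from 0.24 to 0.04. Splicing factors and CLK kinases held more of their calls, with 13 higher and 4 lower of 30 before and 11 and 7 after, and 9 higher and 2 lower without Vehicle replicate 1. SRSF10, a splicing regulator, was at 307 to 328 CPM (median 316) against 250, 253 and 268 CPM, with a log2 fold change of 0.30 ± 0.03 before and 0.31 after. The kinases that phosphorylate such factors, CLK1 and CLK4, were at 0.30 ± 0.04 and 0.33 ± 0.05.

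Several smaller lists had members that kept their calls. Their counts are to be read against 13.7% higher and 15.6% lower of all genes tested. Those shares were 5.44% and 5.65% without Vehicle replicate 1, and 3.22% and 5.7% without it and with the correction. Of 22 genes induced by interferon, 8 passed as higher and 1 as lower, 5 and 0 without Vehicle replicate 1, and 7 and 0 with both changes. STAT2, the interferon signal transducer, was at 24.8 to 26.9 CPM (median 25.9) against 21.3, 21.5 and 21.8 CPM (0.26 ± 0.04), and the induced gene IFI44 at 7.59 to 9.17 CPM (median 8.44) against 7.22, 5.79 and 6.74 CPM (0.36 ± 0.08). Between 500 and 100 µg/mL, 16 of the 22 were lower and 0 higher (3.88% and 2.85% of all genes tested), with IFI44 at −0.34. Of 13 Wnt target and stem cell genes, 2 were higher and 4 lower, 1 and 1 without Vehicle replicate 1, and 2 and 1 with both changes. The lower ones, named after their values were seen, were ASCL2 (−0.35), SP5 (−0.22), EPHB3 (−0.14) and the feedback inhibitor AXIN2 (−0.13), of which AXIN2 stayed called without that library, and the higher ones were ZNRF3 (0.11) and LGR5. LGR5, the receptor that marks intestinal stem cells, was at 38.6 to 43.6 CPM (median 40.9) against 29.9, 30.8 and 31.4 CPM (0.41 ± 0.05, and 0.28 after the correction). Of 11 fatty acid synthesis genes, 6 were higher and 1 lower, 4 and 0 without Vehicle replicate 1, and 2 and 1 with both changes. The correction alone took the list median from 0.158 to 0.037 (−0.007 to −0.031 over all genes tested). ACSS2, which makes acetyl-CoA from acetate, was at 0.29 ± 0.04 and 0.30 after the correction. The stearoyl-CoA desaturase SCD was at 0.27 ± 0.06 and 0.16 after it.

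NRF2 switches on antioxidant and detoxifying enzymes, and its targets were more often lower than higher. Of 26 tested, 3 passed as higher and 13 as lower, 1 and 8 without Vehicle replicate 1 and 2 and 12 after the correction. Of all genes tested, 13.7% and 15.6%, 5.44% and 5.65%, and 6.76% and 16.0% were called higher and lower under these settings. The aldo-keto reductase AKR1B10 was at 79.2 to 95.7 CPM (median 89.7) against 118, 109 and 114 CPM, a log2 fold change of −0.35 ± 0.05, and AKR1C2 was at −0.40 ± 0.07. HMOX1 (heme oxygenase) was at 0.05 ± 0.05, NQO1 at −0.08 ± 0.05 and the asparagine synthetase ASNS at 0.04 ± 0.03, none of them called, though HMOX1 was called at 0.16 after the correction (adjusted p 0.0257). Between 500 and 100 µg/mL, in other libraries, 23 of the 26 NRF2 targets were higher and 0 lower (2.85% and 3.88% of all genes tested), AKR1B10 by 0.66 and AKR1C2 by 0.96. Colon epithelial markers had 8 lower and 0 higher of 12, with KRT8 at 4900 to 5510 CPM (median 5250) against 7440, 6590 and 5800 CPM and a log2 fold change of −0.33 ± 0.05, and 5 lower without Vehicle replicate 1. Their summed level was 10600 to 11200 CPM at 20 µg/mL and 11700 to 13200 CPM in the vehicle.

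The other lists are given as higher and lower calls, then the same without Vehicle replicate 1, to be read against 13.7% and 15.6%, then 5.44% and 5.65%, of all genes tested. PXR and CAR genes of drug metabolism had 6 and 3 of 14 (3 and 1), hypoxia and glycolysis genes 3 and 7 of 21 (2 and 6) and cholesterol synthesis genes 2 and 8 of 25 (2 and 5). ATF4 targets had 1 and 5 of 23 (0 and 4). Among stress lists, p53 targets had 5 and 6 of 19 (2 and 4), autophagy and lysosome genes 3 and 6 of 20 (2 and 3), heat shock genes 3 and 1 of 14 (2 and 1) and the unfolded protein response 3 and 3 of 18 (0 and 1). Among signalling lists, MAPK output genes had 3 and 4 of 23 (1 and 0), NF-kB genes and cytokines 2 and 1 of 16 (1 and 1) and YAP targets 1 and 3 of 13 (0 and 1). Among epithelial lists, goblet cell genes had 0 and 2 of 18 (0 and 0), enterocyte genes 1 and 4 of 18 (0 and 2) and junction genes 3 and 2 of 20 (2 and 0). Replication-dependent histones had 2 and 1 of 36 (2 and 0), metallothioneins and zinc exporters 1 and 1 of 6 (0 and 1), and the mitochondrially encoded mRNAs 1 and 1 of 13 (0 and 0). The 2 mitochondrial rRNAs and the 4 fibroblast and endothelial markers tested had no call by edgeR in either comparison, nor an unadjusted p under 0.05 with all libraries, and the leukocyte markers had 0 and 2 of 5 (0 and 0). ATF4 targets, like those of NRF2, differed between doses in other libraries, with 20 of 23 higher at 500 than at 100 µg/mL and 0 lower (2.85% and 3.88% of all genes tested).

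The size of the offset was set side by side for each extract and dose, over the genes called in the pooled comparison at 20 µg/mL. For the genes called higher, the median log2 fold change was 0.22 with Bojungikgi-tang, 0.22 with Sayeok-tang, 0.22 with Banhasasim-tang and 0.19 in the single Yijung-tang library. For the genes called lower, it was −0.25, −0.26, −0.25 and −0.23. At 20, 100 and 500 µg/mL it was 0.21, 0.20 and 0.19 for the higher and −0.25, −0.23 and −0.22 for the lower genes. Over all genes tested the medians lay between −0.02 and 0.00. All of these values share the 3 vehicle libraries, and the genes were chosen by a comparison with them, so like medians are no sign of a like response. The fold changes of 500 against 100 µg/mL use none of the 12 libraries, and there 3.43% of the higher genes rose and 8.02% fell, and 3.73% of the lower genes rose and 2.02% fell, against 2.85% and 3.88% of all genes tested.

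Singly, edgeR called 3440 genes for Bojungikgi-tang against the vehicle (18.3%), 9.11% of genes higher and 9.2% lower. For Sayeok-tang it called 3555 (18.9%), 8.87% higher and 10.1% lower, and for Banhasasim-tang 2379 (12.7%), 6.43% higher and 6.23% lower. Without Vehicle replicate 1 the counts were 844, 990 and 608. When each fit held just the groups compared, the counts were 1985, 1537 and 38. Banhasasim-tang rested on 2 libraries, and without replicate 2 or 3 the calls were 393 and 329. Yijung-tang had 1 library and no test. Of 9703 genes that reached 10 CPM in it or in a vehicle library, 4 were over 1.5-fold above the vehicle mean and outside the vehicle range (0.0412%) and 34 below (0.35%), among them PTPRO at a log2 ratio of 0.59 and TMEM160 at −2.13.

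Between extracts at 20 µg/mL very little differed. Bojungikgi-tang and Sayeok-tang gave 0 genes by edgeR (0.0%), with 329 genes (1.75%) at an unadjusted p under 0.05 and 1 gene by DESeq2, and the median standard error of a log2 difference was 0.06 for genes of at least 5 CPM. Banhasasim-tang differed from each of them in 4 genes (0.0213%), the same 4 in both comparisons, all higher and all in the list of AhR targets: CYP1A1 and CYP1B1, the P450 enzymes that oxidise planar aromatic compounds, TIPARP, an ADP-ribosyltransferase that restrains AhR, and ALDH1A3, a retinaldehyde dehydrogenase. Both comparisons use the same 2 Banhasasim-tang libraries, and the list was chosen with earlier results of these data known, so neither match is independent. CYP1B1 (chr2:38066973-38109902) was at 102 and 98.3 CPM with Banhasasim-tang, 57.9 to 60.0 with Bojungikgi-tang, 55.5 to 59.4 with Sayeok-tang, 55.6 with Yijung-tang and 46.7, 47.5 and 52.6 in the vehicle. Both Banhasasim-tang libraries stood above all others, and the other extracts lay above the vehicle. The log2 difference was 0.77 ± 0.05 from Bojungikgi-tang (adjusted p 2.76e-10) and 0.80 ± 0.05 from Sayeok-tang.

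TIPARP was at 116 and 110 CPM with Banhasasim-tang and 81.7 to 85.2 CPM in the Bojungikgi-tang and Sayeok-tang libraries, with 63.6, 69.3 and 74.8 CPM in the vehicle. ALDH1A3 was at 28.1 and 26.1 CPM against 16.8 to 18.7 CPM, with 19.3, 20.4 and 20.2 CPM in the vehicle, so for this gene the other extracts lay below the vehicle. CYP1A1 was under the 5 CPM that the rule for genes between extracts asks and is named as one of the 10 known responders. It was at 1.57 and 1.2 CPM with Banhasasim-tang, 0.302 to 0.555 CPM in the other extract libraries and 0.614, 0.352 and 0.356 CPM in the vehicle. Its log2 difference from Bojungikgi-tang was 1.71 ± 0.25 and between Bojungikgi-tang and Sayeok-tang 0.02, with a 95% interval of −0.55 to 0.59. For CYP1B1 the interval between those 2 extracts was −0.05 to 0.12.

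**Figure D5:**
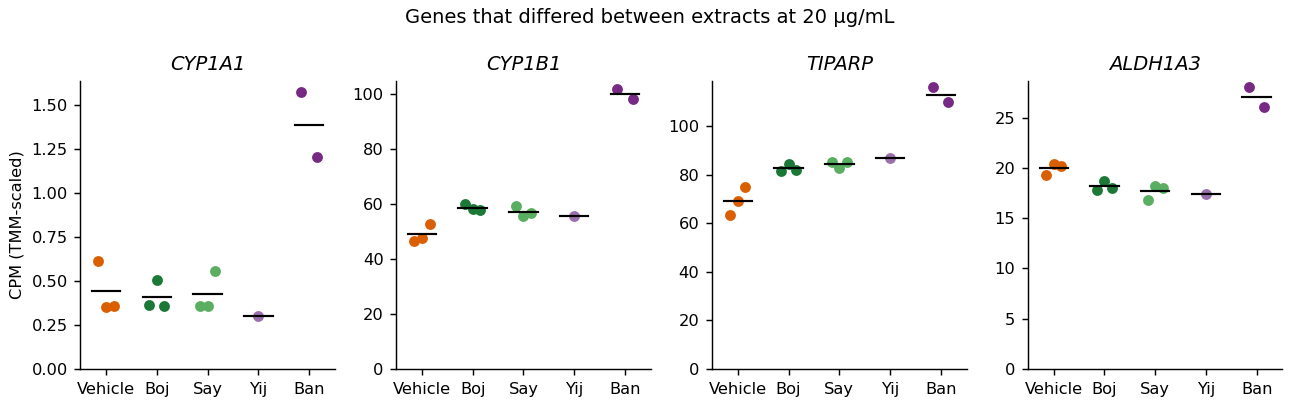
CPM of CYP1A1, CYP1B1, TIPARP and ALDH1A3 in the 12 libraries (linear axes from 0, 1 point per library, bars for group means; Boj, Say, Yij and Ban stand for Bojungikgi-tang, Sayeok-tang, Yijung-tang and Banhasasim-tang). The 2 Banhasasim-tang points lie above all others in each panel, at 102 and 98.3 CPM for CYP1B1.

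Over all 9 libraries CYP1B1 had a log2 fold change of 0.41 ± 0.04 against the vehicle and TIPARP 0.37 ± 0.04, or 0.27 and 0.24 after the correction. CYP1A1 was at 0.31 ± 0.23 (adjusted p 0.338) and the AhR repressor AHRR at −0.02 ± 0.08. By extract, CYP1B1 stood at 1.03 ± 0.05 for Banhasasim-tang, 0.26 ± 0.04 for Bojungikgi-tang and 0.23 ± 0.04 for Sayeok-tang. TIPARP stood at 0.71 ± 0.06, 0.26 ± 0.05 and 0.28 ± 0.05 in the same order. All genes called higher in the pooled comparison had a median of 0.22 with each of these extracts. Of 11 AhR targets tested, 2 were higher and 2 lower at 20 µg/mL, with or without Vehicle replicate 1, and 8 were higher at 500 than at 100 µg/mL. The shares of all genes tested were 13.7% and 15.6% at 20 µg/mL, 5.44% and 5.65% without that library, and 2.85% higher between the doses. The promoter windows of 3 of these 4 genes in the RefSeq table (GRCh38.p14, 250 bases before to 50 after the start, 5′ to 3′ on the gene's strand) are shown because the 4 genes moved together, with the core of the AhR binding motif, GCGTG or its reverse complement CACGC, in capitals.
CYP1A1, chr15:74725479-74725778, minus strand: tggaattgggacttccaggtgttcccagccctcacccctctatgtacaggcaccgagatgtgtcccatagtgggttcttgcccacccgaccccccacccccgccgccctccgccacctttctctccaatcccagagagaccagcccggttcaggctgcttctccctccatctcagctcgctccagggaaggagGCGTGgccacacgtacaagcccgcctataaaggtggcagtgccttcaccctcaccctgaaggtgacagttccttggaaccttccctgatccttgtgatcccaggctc
TIPARP, first of 3 windows, chr3:156674340-156674639, plus strand: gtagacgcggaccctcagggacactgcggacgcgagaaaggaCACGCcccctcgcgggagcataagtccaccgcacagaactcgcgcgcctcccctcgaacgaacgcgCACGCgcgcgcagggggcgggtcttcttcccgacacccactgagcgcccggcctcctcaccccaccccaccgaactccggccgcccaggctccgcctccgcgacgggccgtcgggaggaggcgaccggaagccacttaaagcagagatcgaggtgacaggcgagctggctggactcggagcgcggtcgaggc
ALDH1A3, chr15:100879581-100879880, plus strand: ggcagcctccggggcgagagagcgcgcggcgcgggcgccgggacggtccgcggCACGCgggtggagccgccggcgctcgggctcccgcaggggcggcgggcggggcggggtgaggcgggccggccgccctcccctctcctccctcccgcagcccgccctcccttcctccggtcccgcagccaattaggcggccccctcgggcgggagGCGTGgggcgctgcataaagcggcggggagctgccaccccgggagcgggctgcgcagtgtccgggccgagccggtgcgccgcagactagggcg
The CYP1A1 window held 1 match, the TIPARP window 2 and the ALDH1A3 window 2, and the other TIPARP windows held 0. Of 35116 RefSeq windows of the same length, 36.5% held at least 1 match and 12.7% at least 2, so a match is a description and not a site.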

How the data were processed

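Gene-level expected counts of HT29 cells were deposited by the authors as 1 table of estimates that need not be whole, and the submitters' processing notes name RSEM. Those notes list, with no role or order, RSEM 1.3.3, STAR 2.7.3a, FastQC 0.11.9, Trim Galore 0.6.5 and the hg38 (GRCh38) build. Libraries came from a directional kit and paired 100 bp reads, per the labels' protocols. Sources used here do not give the strand setting or the annotation release. It covers 60675 genes in 270 columns, and 240 columns that match no sample here were not used. Whole numbers are needed for the test, so the 25.48% of positive values that had a fraction were rounded, by at most 0.5.

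Genes passing filterByExpr (minimum count 10), 18783 in all, were TMM-normalised. The model, in edgeR 4.0.16 under R 4.3.3, had 1 mean for each of 13 groups over all 30 libraries and robust quasi-likelihood dispersions. The 9 libraries at 20 µg/mL counted equally against the vehicle in a two-sided test with Benjamini-Hochberg adjustment, called under 0.05. Standard errors (SE) were obtained as |log2 fold change| / sqrt(F). The biological coefficient of variation was 6.38% (17 residual degrees of freedom), so small differences were called. It was estimated over all 13 groups together. Pairs with Vehicle replicate 1 differed more (chi-square per gene 29.09 and 34.73) than pairs within an extract (4.467 to 14.54). Standard errors and p-values against the vehicle therefore do not carry its full spread. Transcript length and GC content came from 1 principal transcript per gene in GENCODE release 29 and were found for 99.2% of tested genes. The correction was a natural spline of each, with 4 degrees of freedom, per library. The log2 CPM used a prior count of 2. Library measures were compared by exact permutation over 220 splits. Yijung-tang ratios used a pseudocount of 0.05 CPM. Pipelines were tested on simulated data. DESeq2 1.42.0 was an alternative.

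Replicate numbers are in the sample titles. For genes of at least 5 CPM, deviations from the group mean correlated over 0.1 between libraries of the same number in all 3 pairs of vehicle with Sayeok-tang (0.121 to 0.26) and of Bojungikgi-tang with Sayeok-tang (0.215 to 0.311), but not of vehicle with Bojungikgi-tang (−0.0978 to 0.198).

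The text may name 10 genes each way with the largest changes that were called, had a proper symbol, reached 5 CPM and did not overlap, then 8 and 8 that were also called without Vehicle replicate 1 and after the correction, 5 and 5 per pair of extracts, 4 members per list and 10 known responders. Not all of these are described. The members, lists and tests were chosen with earlier results of these data known. The 35 lists, from textbook knowledge, held 1319 genes, of which 1156 were tested.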

Additional observations from a re-analysis of the deposited data

Results flagged for a closer look

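The differences between extracts at 20 µg/mL are listed again because the same dose of another extract gave another response, by the test of the difference itself in edgeR. Banhasasim-tang exceeded Bojungikgi-tang by a log2 difference of 0.77 for CYP1B1, 1.71 for CYP1A1, 0.45 for TIPARP and 0.57 for ALDH1A3. It exceeded Sayeok-tang by 0.8 for CYP1B1, 1.72 for CYP1A1, 0.42 for TIPARP and 0.61 for ALDH1A3. Both Banhasasim-tang libraries were above every library of the other extracts in all 4 genes. Banhasasim-tang also differs in code series from both Bojungikgi-tang and Sayeok-tang, and code series cannot be told apart from the extract in either comparison. The single Yijung-tang library, of the code series of Banhasasim-tang, stood at 55.6 CPM for CYP1B1, 86.9 for TIPARP and 17.4 for ALDH1A3. The part of code series was not tested.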

How the results depend on the processing

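Normalisation, filter, tool and weighting kept the count for 20 µg/mL against vehicle within 1.5 times of 5489, with 5513 by DESeq2, 5371 with a replicate block and 4267 after the GC and length correction. Leaving out 1 library at a time gave 2082 (Vehicle replicate 1) to 5817. The same ranges were 844 to 4352 for Bojungikgi-tang, 990 to 4370 for Sayeok-tang, 329 to 3491 for Banhasasim-tang, 3 to 5 for Banhasasim-tang against Bojungikgi-tang and 2 to 4 against Sayeok-tang. Bojungikgi-tang without its replicates 1, 2 and 3 gave 2212, 1874 and 1594, and Sayeok-tang without replicate 3 gave 1746. Without Vehicle replicate 1 and with the correction, the counts were 1676 for all extracts, 720, 1025 and 687 for those 3 extracts, 8 and 7 for the 2 differences of Banhasasim-tang, and 2084 for 500 against 100 µg/mL. The correction alone gave 7 and 7 for the differences and 1964 for the dose comparison, and with a replicate block 1491 for Banhasasim-tang against vehicle, 8 for its difference from Bojungikgi-tang and 2006 for the doses. Only the groups compared gave 1985, 1537 and 38. DESeq2 gave 1 gene between Bojungikgi-tang and Sayeok-tang and 10 between Banhasasim-tang and Bojungikgi-tang. The difference in GC slope was −0.0668 without Vehicle replicate 1, no longer past the threshold. The replicate block without the correction changed no count by over 1.5 times. Why these counts moved was not tested, except that fits of 2 groups hold fewer libraries.

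Of 164 named genes, 125 were unchanged without Vehicle replicate 1 and 39 lost the call. Genes called under neither setting count as unchanged whatever their direction, such as H2AC25 at −0.18 before the correction and 0.01 after it. Some of the named genes were also chosen for passing these settings. After the correction 127 were unchanged in this sense, 27 lost the call and 4 gained one. Another 6 lost the call with an estimate that crossed 0, at edgeR adjusted p of 0.375 to 0.992, so none was called in the other direction. They were ELOVL6 (−0.03, and −0.02 with the replicate block), HSPH1 (−0.03 and −0.02), SEL1L (0.00 and 0.00), PHLDA1 (−0.07 and −0.06), OCLN (−0.03 and −0.03) and SLC30A1 (−0.01 and −0.01). With the correction and without Vehicle replicate 1, the estimates of SEL1L (0.00), CHD1 (−0.01) and SLC30A1 (−0.01) crossed 0 and were not called. Depth limits CYP1A1, at 1.57 CPM or less in the 12 libraries.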
